A study of Mus musculus with 6 samples.

Results

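The 36 genes described here carry fatty acids into muscle cells and oxidise them in mitochondria, and they include the main genes that control this flow. They were chosen by their function, with earlier results of these data known. All 36 were found by symbol among the 36047 genes measured in infarct tissue of the mouse heart. C57BL6 mice, 12 weeks old by the labels, were subjected to ischemia/reperfusion (I/R), in which a coronary artery is tied and then released, and tissue from the infarct area was taken 48 h later. Of the 6 mice, 3 received LGK-974, an inhibitor of Porcupine, the acyltransferase that Wnt proteins need to be secreted, and 3 received its DMSO vehicle. Each library came from 1 mouse, all 6 hearts were injured, and no uninjured heart was part of the comparison. The question was whether the level of these transcripts in the healing infarct differed with the inhibitor.

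The adult heart draws most of its ATP from long-chain fatty acids. Lipoprotein lipase releases them from triglycerides, transporters and binding proteins carry them into the cardiomyocyte, and an acyl-CoA synthetase activates them. The carnitine shuttle then moves the acyl group into the mitochondrion, where rounds of dehydrogenation, hydration, a further oxidation and thiolysis cut it into acetyl-CoA. Malonyl-CoA holds the shuttle back, and the nuclear receptor PPAR-alpha with its coactivator PGC-1-alpha drives transcription of many of these genes.

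Promoter sequence was read for 29 of the 36 genes from RefSeq tables of GRCm38.p6, over the 250 bases before the transcription start and on both strands. The nuclear receptor half-site AGGTCA was present in 6 of the 29 genes (Acadm, Acadvl, Cd36, Cpt1a, Echs1 and Ucp3), and 14% of all 32851 promoters held it. The direct repeat of this half-site with 1 base between the copies, the estrogen-related receptor element TCAAGGTCA, which contains the half-site, and the forkhead element GTAAACA were each found in 0 of the 29 genes, against 0.0335%, 0.387% and 3.17% of all promoters. The GC box GGGCGG was present in 17 of the 29 genes and in 32.7% of all promoters. These matches describe letters in this window only. The 200 bases from position -250 to -51 are shown for Pdk4, the gene with the largest difference between the groups, and for Acadm and Cd36, which have the half-site there. The promoters lie on the minus strand at chr6:5496329-5496528 (Pdk4), chr3:153944694-153944893 (Acadm) and chr5:17835947-17836146 (Cd36), and the half-site, read here as TGACCT, is in capitals.
Pdk4: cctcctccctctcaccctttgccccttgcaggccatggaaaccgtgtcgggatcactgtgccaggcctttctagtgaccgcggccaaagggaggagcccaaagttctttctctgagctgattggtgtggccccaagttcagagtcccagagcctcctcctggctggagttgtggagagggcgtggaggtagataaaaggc
Acadm: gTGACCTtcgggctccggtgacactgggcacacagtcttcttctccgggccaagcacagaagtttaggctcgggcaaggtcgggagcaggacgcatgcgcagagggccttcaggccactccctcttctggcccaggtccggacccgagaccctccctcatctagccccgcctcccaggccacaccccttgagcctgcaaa
Cd36: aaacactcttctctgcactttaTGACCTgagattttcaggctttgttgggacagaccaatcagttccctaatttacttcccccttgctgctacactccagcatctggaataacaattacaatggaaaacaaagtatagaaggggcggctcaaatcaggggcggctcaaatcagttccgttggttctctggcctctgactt

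Sequencing gave 41579787 to 80398211 estimated counts per library, of which 28.2% to 53.7% fell on mitochondrial transcripts. No transcript was used here to check which libraries came from treated mice, so the direction of every difference rests on the labels. Levels are given as CPM, counts scaled to a common library total with TMM factors. Before the genes are described, 1 library has to be named. DMSO replicate 1 stood apart on the first principal component, which held 61.3% of the variance (-181, against -55.5 to 105 in the other 5 libraries). It also had counts for 99.3% of 1501 olfactory, vomeronasal and taste receptor genes, against 59.8% to 88.3% elsewhere. The main counts are therefore also given without it. The tissue carried the markers of its label: 15 of 15 cardiomyocyte markers passed the filter on low counts. Their summed level was 41791 to 60177 CPM with LGK-974 and 48680 to 67531 CPM with DMSO.

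All 36 genes passed the filter and were fitted together with the other genes, 20094 in all. In every one of them the fitted level was lower with LGK-974 than with DMSO, whereas 59.5% of all genes tested had a log2 fold change below 0. The median log2 fold change of the 36 genes was -0.63, a level 35.5% lower, and the median over all genes tested was -0.13. None of the 36 passed the test: edgeR's quasi-likelihood test called 0 of 36 genes at a Benjamini-Hochberg adjusted p below 0.05, and 0% of all genes. Their adjusted p-values ran from 0.368 to 0.807. At an unadjusted p below 0.05, 13 of the 36 were lower, against 7.18% of all genes. DESeq2 called 1 of the 36, Pdk4, and 0.432% of all genes in that direction (1.42% in either). Values of the groups did not overlap, with all 3 LGK-974 mice below all 3 DMSO mice, for 11 of the 36 genes and for 7.27% of all genes tested. Without DMSO replicate 1 the last count was 20 of 36, against 11.9% of all genes, 19 were lower at an unadjusted p below 0.05, against 3.89%, and the median was -0.67. Since the genes were chosen with earlier results known, these counts are a description, and no test of the set was run.

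**Figure D1:**
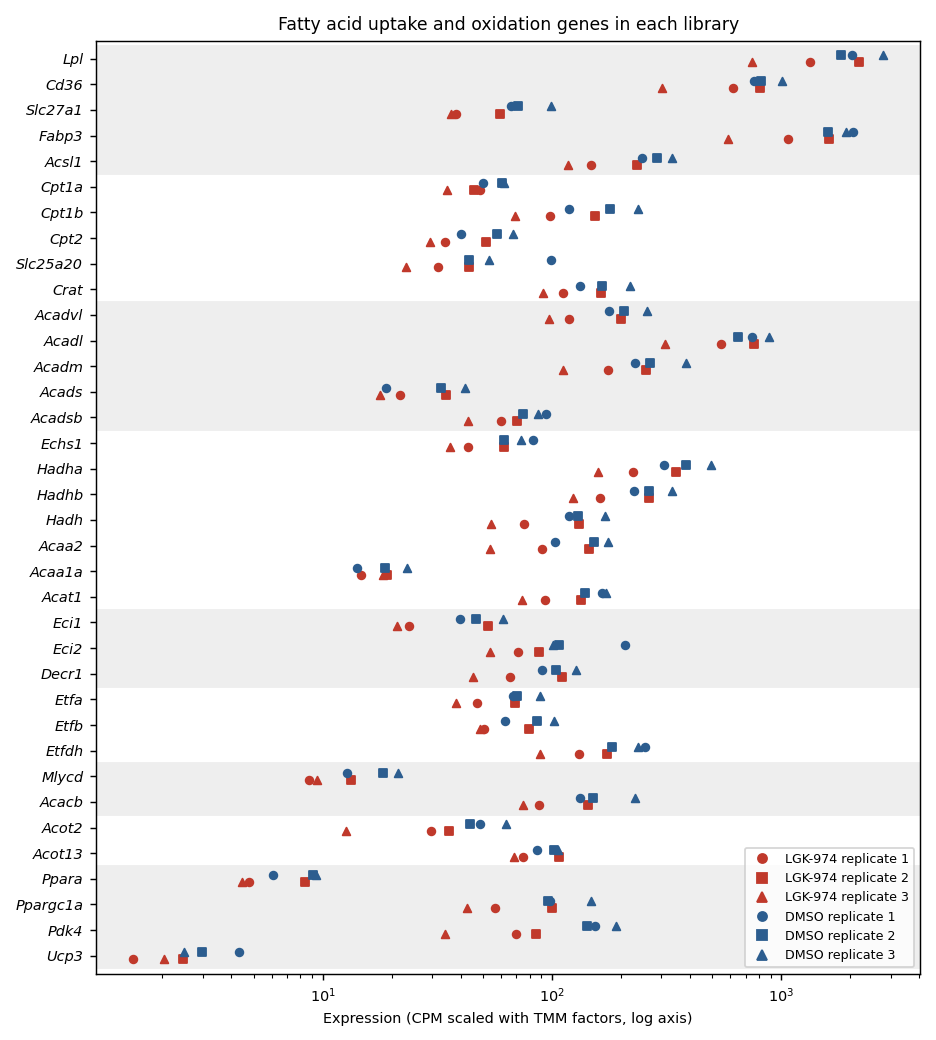
Level of each of the 36 genes in each of the 6 libraries, in CPM on a log axis, with red symbols for LGK-974, blue symbols for DMSO and the symbol's shape for the replicate; shaded bands mark the functional groups. LGK-974 replicate 3 is the lowest library for 33 of the 36 genes and DMSO replicate 3 the highest for 28.

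In CPM, the libraries kept much the same order from gene to gene. The TMM factors in this scaling ran from 0.816 (LGK-974 replicate 2) to 1.40 (LGK-974 replicate 3), and a larger factor lowers the CPM. Their part in the order was not tested. LGK-974 replicate 3 had the lowest level of the 6 libraries in 33 genes, and LGK-974 replicate 1 in 2. LGK-974 replicate 2 was the highest of its group in 35 genes and lay above the lowest DMSO mouse in 25, which is the number of genes whose groups overlapped. DMSO replicate 3 was the highest of all libraries in 28 genes and DMSO replicate 1 in 7. In TPM, which is scaled differently, the order was not the same. Acadm had 222, 226 and 247 TPM in LGK-974 replicates 1 to 3 and 206, 295 and 427 TPM in DMSO replicates 1 to 3. Hadhb and Cpt1b also had their lowest TPM in DMSO replicate 1 (83.6 and 34.4), while Lpl, Cd36, Fabp3 and Pdk4 had it in LGK-974 replicate 3. Summed over the 36 genes, the level was 5874, 8861 and 3674 CPM in LGK-974 replicates 1 to 3 and 9155, 8642 and 11364 CPM in DMSO replicates 1 to 3. The share of counts on mitochondrial transcripts also set these LGK-974 mice apart, with the lowest of the 6 libraries in LGK-974 replicate 3 (28.2%) and the highest in LGK-974 replicate 2 (53.7%), against 43.3% in LGK-974 replicate 1 and 39.3% to 42.8% with DMSO. With the mitochondrial genes left out of the fit, all 36 genes were lower with a median of -0.62 and 11 did not overlap (6.93% of all genes). With LGK-974 replicate 2 left out, 33 of the 36 genes did not overlap between the groups (12.4% of all genes), and 24 had an unadjusted p below 0.05 (3.18% of all genes). With LGK-974 replicate 3 left out, these counts were 10 (7.78%) and 2 (0.939%). With DMSO replicate 3 left out, they were 6 (22.6%) and 3 (14.1%), both below the share over all genes.

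**Figure D2:**
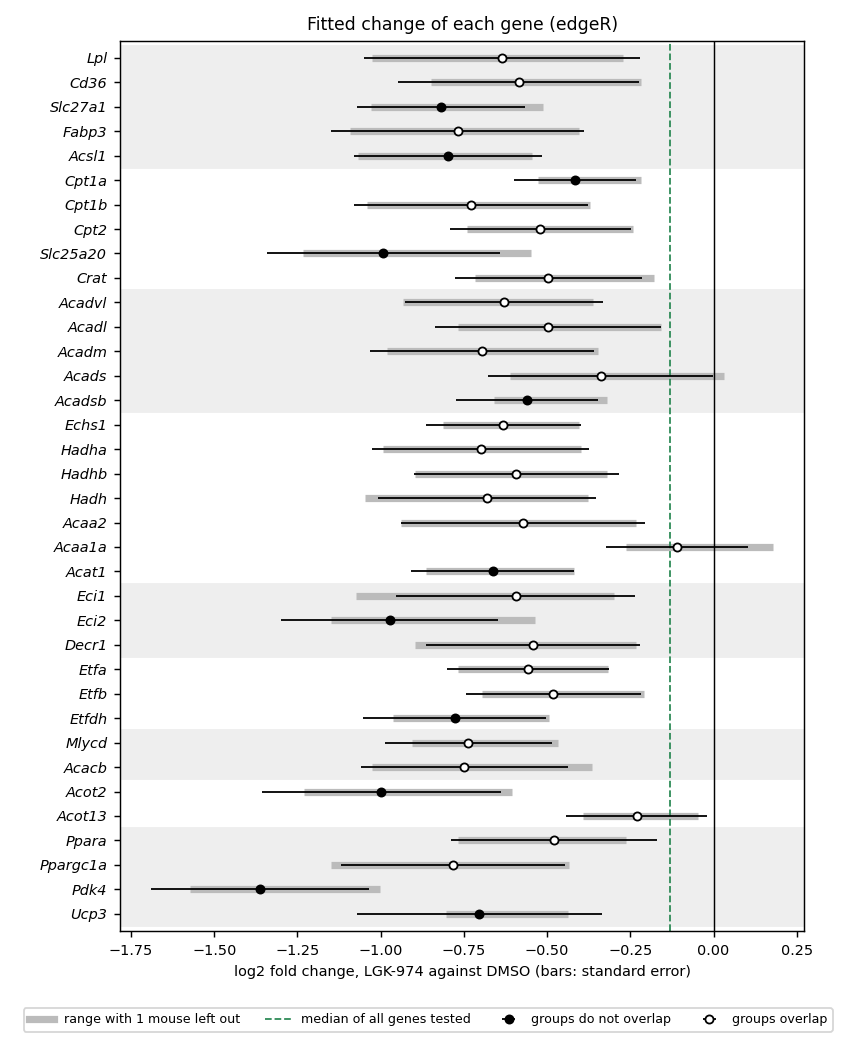
Fitted log2 fold change of each gene, LGK-974 against DMSO, with its standard error (black bars) and the range of the 6 fits that leave out 1 mouse each (grey bars); the dashed line is the median of all genes tested. Of the 36 genes, 34 stay below 0 in each of these fits, and Acads and Acaa1a cross it.

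Genes of fatty acid uptake and activation had a median log2 fold change of -0.77, and 5 of 5 were lower. Compared per transcript length, they included the most abundant of the 36 transcripts: Fabp3, the heart fatty acid binding protein, had 1484 to 2960 TPM, a level scaled for transcript length and library total, followed by the scavenger receptor Cd36 (333 to 739 TPM) and lipoprotein lipase, Lpl (313 to 691 TPM). The ranges of Cd36 and Lpl overlapped, although Cd36 had the higher TPM in each of the 6 libraries; this order was not tested.
The level of Fabp3 was 1069, 1613 and 584 CPM in LGK-974 replicates 1 to 3 and 2047, 1598 and 1920 CPM in DMSO replicates 1 to 3. LGK-974 replicate 2 lay just above the lowest DMSO mouse, and the fitted log2 fold change was -0.77 ± 0.38 (SE, n = 3 per group; edgeR adjusted p = 0.379).
Slc27a1 encodes FATP1, a transporter with acyl-CoA synthetase activity. Its level was 38.0, 59.6 and 36.4 CPM with LGK-974 and 66.2, 71.2 and 99.1 CPM with DMSO, without overlap, for a log2 fold change of -0.82 ± 0.25 (SE).
Acsl1, the main long-chain acyl-CoA synthetase of the heart, had 147, 234 and 118 CPM against 247, 287 and 334 CPM, also without overlap (-0.80 ± 0.28, SE).
For Cd36 (615, 807 and 301 against 764, 813 and 1008 CPM) and Lpl (1335, 2189 and 747 against 2033, 1824 and 2777 CPM) the groups overlapped, and the log2 fold changes were -0.59 ± 0.36 and -0.64 ± 0.41 (SE).

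In the carnitine shuttle, the median log2 fold change was -0.52. Cpt1a and Cpt1b encode the liver and muscle forms of carnitine palmitoyltransferase 1, the step that malonyl-CoA inhibits. Cpt1b had 98.3, 155 and 69.1 CPM with LGK-974 and 119, 179 and 236 CPM with DMSO, with overlap between the groups (-0.73 ± 0.35, SE). Cpt1a had 48.5, 45.8 and 34.8 CPM against 49.8, 60.8 and 61.6 CPM, a smaller log2 fold change of -0.42 ± 0.18 (SE). Its groups were separated only by the narrow step between LGK-974 replicate 1 and DMSO replicate 1. With the scaling of DESeq2 and with counts scaled from TPM they overlapped. The balance of these forms was tested within each library as the log2 ratio of Cpt1a to Cpt1b in TPM. It was -1.53, -2.45 and -1.35 with LGK-974 and -1.74, -2.10 and -2.52 with DMSO, so that Cpt1b was the more abundant form in all 6 mice. The mean ratio was -1.78 ± 0.587 (SD, n = 3) against -2.12 ± 0.391 (SD, n = 3), a difference of 0.34 that was within the spread between mice (two-sided exact permutation test, p = 0.4, where 3 against 3 mice cannot give less than 0.1).
Slc25a20, the carnitine-acylcarnitine carrier of the inner membrane, had 31.7, 43.3 and 23.1 CPM against 98.6, 43.4 and 53.2 CPM. The groups were separated by a narrow margin between LGK-974 replicate 2 and DMSO replicate 2, and DMSO replicate 1 was far above all other libraries. Its log2 fold change of -0.99 ± 0.35 (SE) was -0.55 without that library.
Cpt2, which forms acyl-CoA again inside the mitochondrion, and Crat, which exchanges acetyl groups between carnitine and CoA, had log2 fold changes of -0.52 and -0.50 and overlapped between the groups.

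The acyl-CoA dehydrogenases, which take the first electrons from the acyl chain, had a median log2 fold change of -0.56. They are ordered by the chain length they prefer: Acadvl for very long chains (-0.63 ± 0.30), Acadl for long chains (-0.50 ± 0.34), Acadm for medium chains (-0.70 ± 0.34), and Acads for short chains (-0.34 ± 0.34; all SE). Acadm, whose promoter is shown above, had 175, 258 and 112 CPM with LGK-974 and 231, 267 and 384 CPM with DMSO. LGK-974 replicate 2 lay above DMSO replicate 1, and the other LGK-974 mice lay below all DMSO mice. Acads had 21.7, 34.5 and 17.9 CPM against 18.9, 32.7 and 42.0 CPM, with overlap, and its log2 fold change was 0.03 without DMSO replicate 3. Acadsb, which acts on short branched chains from isoleucine, was the dehydrogenase without overlap: it had 59.8, 70.5 and 43.3 CPM against 94.3, 74.5 and 87.1 CPM (-0.56 ± 0.21, SE).

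Of the 7 genes for the hydration, second oxidation and thiolysis steps, all were lower, with a median of -0.63. Hadha and Hadhb encode the subunits of the mitochondrial trifunctional protein, which carries out these steps on long chains. Hadha had 225, 349 and 159 CPM with LGK-974 and 309, 384 and 496 CPM with DMSO, and Hadhb 162, 264 and 123 CPM against 228, 264 and 335 CPM. In both subunits LGK-974 replicate 2 lay within the DMSO values, and the log2 fold changes were -0.70 ± 0.32 and -0.59 ± 0.31 (SE).
Echs1, the short-chain enoyl-CoA hydratase, and Hadh, the short-chain hydroxyacyl-CoA dehydrogenase, had log2 fold changes of -0.63 ± 0.23 and -0.68 ± 0.33 (SE). Acat1, the acetoacetyl-CoA thiolase, had 93.2, 135 and 73.8 CPM against 166, 139 and 173 CPM without overlap (-0.66 ± 0.25, SE), and Acaa2, the mitochondrial thiolase of straight chains, had a log2 fold change of -0.57 ± 0.37 (SE).
Acaa1a, the peroxisomal thiolase of the group, had the smallest difference of all 36 genes. Its values of 14.7, 19.1 and 18.3 CPM with LGK-974 lay within those with DMSO (14.2, 18.7 and 23.3 CPM), for a log2 fold change of -0.11 ± 0.21 (SE). This was above 0 without DMSO replicate 3 (0.18).

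The enzymes that prepare unsaturated chains for oxidation were Eci1 and Eci2, the enoyl-CoA isomerases, and Decr1, the dienoyl-CoA reductase. Eci2 had 71.3, 88.1 and 53.5 CPM against 209, 107 and 102 CPM, with no overlap and a log2 fold change of -0.97 ± 0.33 (SE), which was -0.54 without DMSO replicate 1, its highest library. Eci1 (-0.59 ± 0.36) and Decr1 (-0.54 ± 0.32; both SE) overlapped.
Electrons from the dehydrogenases pass through the electron transfer flavoprotein, made of Etfa and Etfb, to its ubiquinone oxidoreductase, Etfdh. Etfdh had 131, 174 and 88.8 CPM against 256, 183 and 237 CPM without overlap (-0.78 ± 0.27, SE). For the flavoprotein subunits the log2 fold changes were -0.56 ± 0.24 (Etfa) and -0.48 ± 0.26 (Etfb; both SE), and LGK-974 replicate 2 lay above DMSO replicate 1 in both.

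Malonyl-CoA is made at the mitochondrial surface by acetyl-CoA carboxylase 2, Acacb, and removed by malonyl-CoA decarboxylase, Mlycd. These enzymes act in opposite directions on the shuttle, and both were lower. Acacb had 87.7, 143 and 74.8 CPM against 132, 151 and 231 CPM (-0.75 ± 0.31, SE), and Mlycd had 8.75, 13.3 and 9.43 CPM against 12.7, 18.4 and 21.4 CPM (-0.74 ± 0.25, SE). In both genes LGK-974 replicate 2 lay above DMSO replicate 1. The log2 ratio of Acacb to Mlycd in TPM was 1.35, 1.54 and 1.07 with LGK-974 and 1.48, 1.12 and 1.597 with DMSO. The means of 1.32 ± 0.237 and 1.40 ± 0.251 (SD, n = 3 each) differed by -0.08, within the spread between mice (two-sided exact permutation test, p = 0.7, lowest possible 0.1).
The thioesterases, which release the free fatty acid from acyl-CoA, differed from each other in the size of their fitted values. Acot2, in the mitochondrial matrix, had 29.6, 35.6 and 12.6 CPM against 48.5, 43.9 and 62.9 CPM without overlap (-0.998 ± 0.36, SE). Acot13 had 74.96, 107 and 68.2 CPM against 85.9, 102 and 106 CPM, and LGK-974 replicate 2 was the highest of all 6 libraries (-0.23 ± 0.21, SE). The difference between these genes was not tested.

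Pdk4, pyruvate dehydrogenase kinase 4, turns off the entry of pyruvate into the citric acid cycle and so favours the use of fatty acids. It had the largest difference of the 36 genes. Its level was 69.9, 84.8 and 34.3 CPM in LGK-974 replicates 1 to 3 and 154, 142 and 190 CPM in DMSO replicates 1 to 3. The highest LGK-974 mouse lay well below the lowest DMSO mouse, and the mean was 63.0 ± 25.98 CPM against 162 ± 25.2 CPM (SD, n = 3 each). The log2 fold change was -1.36 ± 0.33 (SE), a level 61.1% lower, and it stayed between -1.57 and -1.003 when each mouse was left out in turn. The edgeR adjusted p was 0.368. By DESeq2 the log2 fold change was -1.34 with an adjusted p of 0.00611, and edgeR without the filter on low counts gave -1.22 with an adjusted p of 0.0227, where it called 3.52% of all genes.
Ppargc1a, which encodes PGC-1-alpha, had 56.6, 99.99 and 42.5 CPM against 98.1, 95.9 and 149 CPM (-0.78 ± 0.34, SE), with LGK-974 replicate 2 above the lower DMSO mice. Ppara, the nuclear receptor PPAR-alpha, was among the least abundant of the 36 transcripts at 1.59 to 4.79 TPM. It had a log2 fold change of -0.48 ± 0.31 (SE) with overlap.
Ucp3, a mitochondrial carrier of striated muscle, was the least abundant, with 0.831 to 1.498 TPM and a lowest count of 101. Its values were 1.496, 2.46 and 2.04 CPM against 4.30, 2.98 and 2.48 CPM, separated only by the small step between LGK-974 replicate 2 and DMSO replicate 3 (-0.70 ± 0.37, SE). Without DMSO replicate 1 the log2 fold change was -0.44.

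Across the 36 genes, the fitted log2 fold changes were close to each other. Of the 36, 29 lay between -0.4 and -0.9. Below -0.9 were Pdk4, Acot2, Slc25a20 and Eci2, and above -0.4 were Acads, Acot13 and Acaa1a. Every functional group had a median between -0.77 and -0.52.

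Several counts depend on which transcripts of a gene were summed. In DMSO replicate 1, transcripts annotated as retained introns held 66.6% of the counts of Slc25a20, against 12.6% to 31.1% in the other libraries. The share was 57.2% against 23.2% to 33.6% for Echs1, and 39.4% against 11.9% to 23.0% for Etfdh. In Acadsb it ran the other way, with 0.597% in DMSO replicate 1 and 23.4% to 42.4% elsewhere. LGK-974 libraries had the highest share in other genes. Slc27a1 had 57.5% in LGK-974 replicate 3 and 37.4% in LGK-974 replicate 1, against 21.1% to 25.3% elsewhere. Ucp3 had 56.5% in LGK-974 replicate 1, against 2.72% to 24.3% elsewhere. Over all non-mitochondrial counts the share was 6.58% in DMSO replicate 1 and 5.82% to 6.28% in the others. With these transcripts left out, an alternative chosen after seeing the data, all 36 genes were still lower with a median of -0.66, and 11 did not overlap (7.62% of all genes). Of these, 8 were among the 11 above, Cpt1a, Slc25a20 and Ucp3 were not, and Cd36, Etfa and Acacb were added. Slc25a20 then had a log2 fold change of -0.67, Slc27a1 of -1.14 and Acadsb of -0.95.
Some genes share exons with others, and reads there cannot be assigned with certainty. Exons of 11 of the 36 genes overlapped another annotated gene, the most in Cpt1b (2744 of 3372 exonic bases, with Gm44502), Etfb (617 of 1164, with Gm45233) and Acadvl (1151 of 2686, with Dvl2 on the other strand). Acot2, Acaa1a and Eci2 have close paralogs (Acot1, Acaa1b and Eci3), between which the quantification can split reads.

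**Figure D3:**
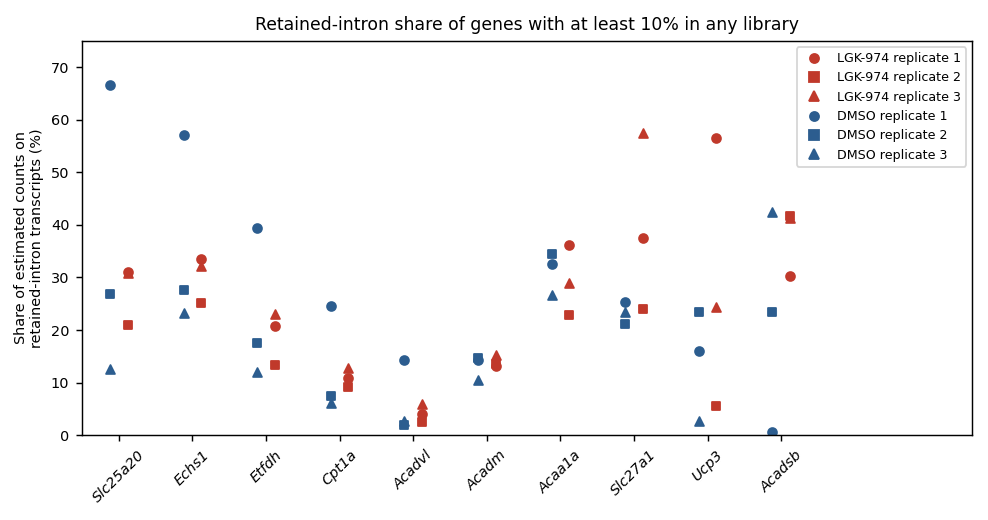
Share of each gene's estimated counts, in percent, that fell on retained-intron transcripts in each library, for the 10 genes with a share of 10% or more in any library (red, LGK-974; blue, DMSO). DMSO replicate 1 stands above the others in Slc25a20, Echs1, Etfdh, Cpt1a and Acadvl and at 0.597% in Acadsb. LGK-974 replicate 3 is the highest in Slc27a1 and LGK-974 replicate 1 in Ucp3.

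In a piece of tissue, fewer cells of a type and less RNA per cell cannot be told apart. Markers of several cell types also differed between the groups, some in the other direction. Fitted values of 13 of the 15 cardiomyocyte markers were lower in the LGK-974 mice, and the list's median log2 fold change was -0.44; the cardiac actin gene Actc1 (0.86) and Csrp3 (0.21) had higher ones. Leukocyte markers were higher in 12 of 12, each without overlap (10.7% of all genes) and with an unadjusted p below 0.05 (6.26% of all genes). Both counts were 12 without DMSO replicate 1. None passed the adjusted threshold in the main edgeR fit. DESeq2, which called 1.42% of all genes, called all but Csf1r (adjusted p = 0.0583), Fcer1g (0.0651) and Tyrobp (0.115). Its lowest adjusted p among them was 0.000262 (Lyz2). Without the filter on low counts, edgeR called 3.52% of all genes and all 12 markers but Csf1r (adjusted p = 0.0664). The summed level of the 12 markers was 514 to 658 CPM with LGK-974 and 228 to 321 CPM with DMSO. Fibroblast markers were higher in 9 of 10, with summed levels of 3480 to 6015 CPM against 1721 to 2528 CPM. Of the 10, 5 did not overlap (10.7% of all genes) and 4 had an unadjusted p below 0.05 (6.26%). These 4 were Col1a1, Col1a2, Col3a1 and Postn, with log2 fold changes of 1.12, 1.07, 1.14 and 1.56. DESeq2 called these 4 of the 10 (adjusted p = 0.0336, 0.0239, 0.0071 and 5.4e-05). Without the filter on low counts, edgeR called only Postn (adjusted p = 0.0080). Dcn (0.01), Pdgfra (0.13), Ddr2 (0.21) and Fap (-0.21) had smaller ones and overlapped. Endothelial markers had a median log2 fold change of 0.02. Skeletal muscle markers summed to 6.06 to 9.85 CPM against 4.74 to 14.2 CPM. Adipocyte markers summed to 10.9 to 20.3 CPM against 19.0 to 23.6 CPM, with Adipoq, Cidec, Lep and Ucp1 too low to be tested and at 0 in at least 1 library each. The part of tissue composition in the lower levels of the 36 genes was not tested.

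The genes were therefore also expressed relative to the cardiomyocyte markers, by subtracting the mean log2 level of the 15 markers in each library. On a log2 scale the markers differed by -0.33 between the group means and the 36 genes by a median of -0.70. Relative to the markers, the median difference of the 36 genes was -0.36, with 33 lower and 3 higher (Acads 0.01, Acot13 0.08 and Acaa1a 0.24). The groups did not overlap for 10 of the 36, all lower, and for 1.75% of all genes treated in the same way. These were Pdk4, Acot2, Acsl1, Slc27a1, Acacb, Hadha, Acadm, Mlycd, Acat1 and Acadvl. For the level itself the counts were 11 of the 36 and 7.27% of all genes. The share over all genes thus moved with this step too and is not a fixed reference. Every gene shifted by the same amount, so the ranking of the 36 genes by this difference could not change. Pdk4 was at -1.12 and Acot2 at -0.78. Slc25a20 (-0.62) and Eci2 (-0.59) came next, but without DMSO replicate 1 they were at -0.15 and -0.13. Without that library 14 genes did not overlap, against 2.22% of all genes, and the median was -0.30. Over the 6 fits without 1 mouse each, it stayed between -0.48 and -0.24. The markers themselves were not uniform, since Actc1 and Csrp3 differed in sign from the rest, and no test was made on these ratios.

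**Figure D4:**
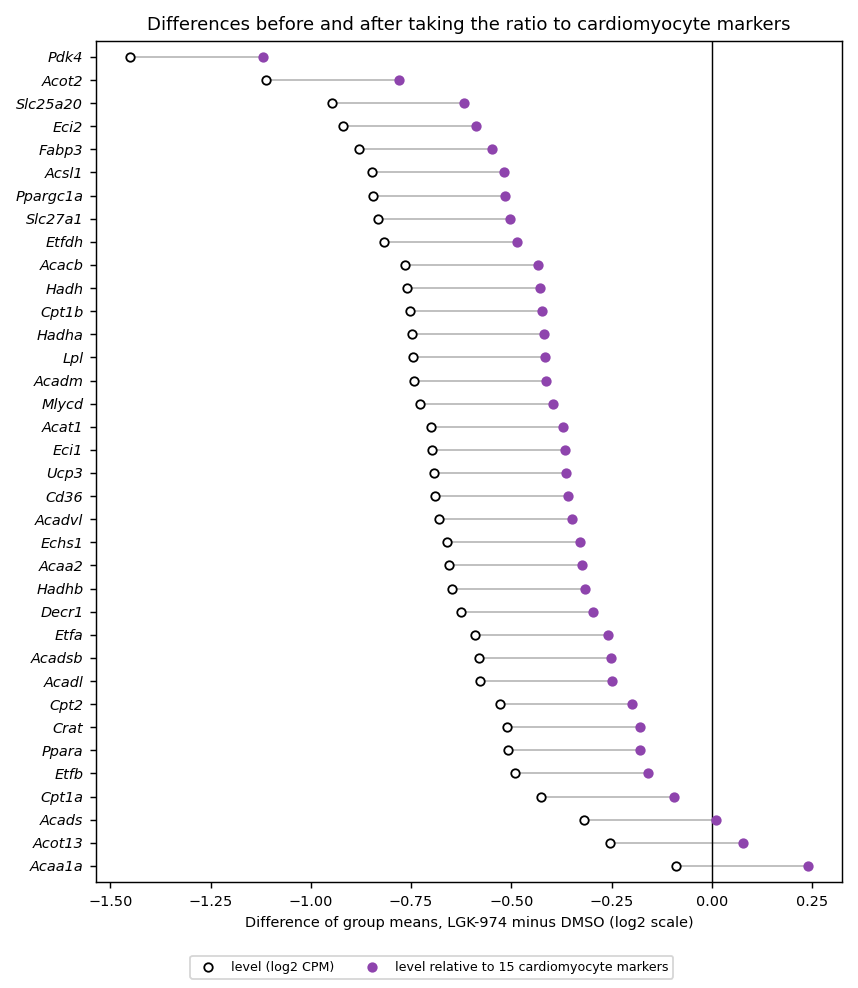
Difference between the group means of each gene on a log2 scale, LGK-974 minus DMSO, for the level itself (open circles) and for the level relative to 15 cardiomyocyte markers (filled circles). All genes shift by the same amount, since the markers differ by -0.33, and 33 of the 36 genes lie below 0.

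Related lipid genes were examined to set the 36 genes in their pathway. In the peroxisome, where very long chains are shortened, 13 of 15 genes were lower, with a median log2 fold change of -0.23. Of these, 3 had an unadjusted p below 0.05 (7.18% of all genes), Ehhadh (-1.04 ± 0.30), Pex11a (-0.91 ± 0.29) and Crot (-0.62 ± 0.26; all SE), the last at -0.28 without DMSO replicate 1. Genes of triglyceride storage and lipolysis were lower in 11 of 12, with a median of -0.39, and 3 had an unadjusted p below 0.05. These were Plin5 (-0.81 ± 0.23) and Plin4 (-0.82 ± 0.28), which coat lipid droplets, and Lipe (-0.78 ± 0.22; all SE), the hormone-sensitive lipase. Other mitochondrial acyl-CoA enzymes were lower in 12 of 14, with a median of -0.33. Acot1, the cytosolic paralog of Acot2, had 3.50, 7.63 and 1.10 CPM against 23.1, 10.9 and 9.87 CPM (-1.85 ± 0.65, SE). Acad9 had a log2 fold change of -1.31 ± 0.52 (SE), which was -0.39 without DMSO replicate 1.
For fatty acid synthesis, which opposes oxidation, most fitted values lay on the other side of 0. The level was higher in the LGK-974 group for 7 of its 8 genes, the median was 0.37, and 4 did not overlap (10.7% of all genes). The desaturases Scd2 (0.90 ± 0.29) and Scd1 (0.49 ± 0.20) and the fatty acid synthase gene Fasn (0.53 ± 0.23; all SE) had an unadjusted p below 0.05 (6.26% of all genes). Synthetases and binding proteins other than those of the 36 were split, with 5 of 10 lower and a median of 0.01. Fabp5, a binding protein also made by macrophages, was at 26.7, 25.1 and 34.9 CPM against 10.5, 15.9 and 12.8 CPM (1.14 ± 0.21, SE), and Acsl5 at a log2 fold change of 0.77 ± 0.21 (SE). Acsl6 was at -1.17 ± 0.39 (SE). Without DMSO replicate 1, 14 of 14 peroxisomal genes tested and 11 of 12 triglyceride genes were lower and 8 of 8 synthesis genes were higher. In the main edgeR fit, 0 of these genes passed the adjusted threshold. Of those named, DESeq2 called Fabp5 (adjusted p = 0.00476), and edgeR without the filter on low counts called Acot1 (adjusted p = 6.8e-05), Fabp5 (0.00144), Scd2 (0.0345), Acad9 (0.0372) and Acsl5 (0.0496).

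**Figure D5:**
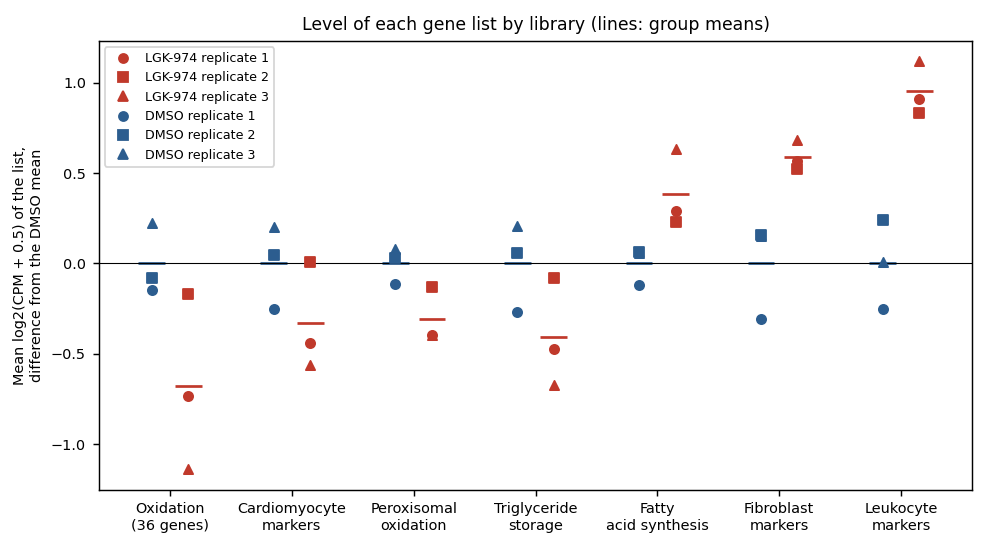
Mean level of each gene list in each library, as log2 (CPM + 0.5) relative to the DMSO mean (red, LGK-974; blue, DMSO; lines, group means). The oxidation genes of the 3 LGK-974 mice lie below those of the 3 DMSO mice, but LGK-974 replicate 2 only narrowly. Its mean log2 level was 6.68, against 6.71 in DMSO replicate 1. The leukocyte and fibroblast markers of the LGK-974 mice lie above those of the DMSO mice.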

How the data were processed

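Infarct RNA of 6 mice was quantified by the authors with Kallisto on Ensembl transcripts of GRCm38, and for each of 118489 transcripts they deposited the estimated count and the TPM; the release of the index is not given in the sources used here. The methods name both a ribosomal depletion and a capture kit. Transcripts were joined to GENCODE vM21 genes of the same build (98.6% of transcripts, 99.6% to 99.7% of counts), and counts were summed per gene and rounded. Genes that reached 10 counts in 3 or more libraries were fitted with edgeR 4.0.16 (TMM, quasi-likelihood test, R 4.3.3, Benjamini-Hochberg adjustment over 20094 genes), which was first tested on simulated data. DESeq2 1.42.0, the tool the study names, was an alternative. Non-overlap is judged on scaled CPM. Depth gave at least 101 counts for every gene of the 36 in every library, so that the spread between mice limits precision. No library was a copy of another. All 36 genes are named, and of each other pathway list up to 3 genes with the smallest p. Acot1, Angptl4, Klf15, Actc1, Csrp3 and the leukocyte and fibroblast markers given by symbol are named by that rule or because a result turns on them. A further list is not reported here. The genes and lists were chosen with earlier results of these data known. Promoters came from RefSeq (GRCm38.p6).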

Additional observations from a re-analysis of the deposited data

How the results depend on the processing

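The 36 genes were refitted under 15 alternatives, of which 2 (retained-intron transcripts left out, and protein-coding transcripts only) were chosen after seeing the data. Of 540 fitted values, 534 kept their direction and their side of the adjusted threshold, 2 passed it (Pdk4 by DESeq2 at -1.34 and without the filter at -1.22), and 4 changed sign: Acaa1a without the filter (0.00703), with counts scaled from TPM (0.10) and without DMSO replicate 3 (-0.26 to 0.18 over the fits without 1 mouse), and Acads without DMSO replicate 3 (-0.612 to 0.0323). Among 18 other genes, 264 of 270 values kept direction and side and 0 changed sign; the others passed the threshold (Fabp5 by DESeq2, and Fabp5, Acot1, Acad9, Acsl5 and Scd2 without the filter). DESeq2 called 315 genes of all and 1 of the 36, with 21 of the 36 lower at an unadjusted p below 0.05 (9.44% of all genes). Without the filter edgeR called 1206 of all and 1 of the 36, 6 were lower at an unadjusted p below 0.05 (9.9% of all genes), and 4 did not overlap between the groups (4.6%). With protein-coding transcripts only, 20 were lower at an unadjusted p below 0.05 (7.67%). The causes were not tested. Over the 6 fits without 1 mouse each, the number of all genes called was 0 to 2 (2 without DMSO replicate 1). In these fits 2 to 24 of the 36 genes were lower at an unadjusted p below 0.05 (0.939% to 14.1% of all genes). Those without overlap numbered 6 to 33 (7.78% to 22.6%). The ends of the counts and shares do not belong together. Without DMSO replicate 3, 6 did not overlap against 22.6% of all genes, and both counts lay below the all-gene shares. The median of the 36 genes was -0.92 to -0.36. The log2 Acacb to Mlycd ratio differed by -0.221 to 0.0458 and changed sign without LGK-974 replicate 3 (0.0458) and without DMSO replicate 3 (0.0191); the log2 Cpt1a to Cpt1b ratio differed by 0.129 to 0.677. The median over all genes tested was -0.13, and 0.02 without the filter and without DMSO replicate 3. The labels do not say whether same-numbered mice were paired. Deviations of same-numbered mice correlated at 0.476, -0.0466 and 0.408, which cannot decide it. With a replicate block edgeR called 0 genes of all and 0 of the 36. In that fit 18 of the 36 were lower at an unadjusted p below 0.05 (10.5% of all genes), 11 did not overlap (7.27%), and the median was -0.69. With 3 mice per group and at least 101 counts per gene and library, the spread between mice more than depth limits these values.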

Other observations

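Of 19 other regulators of fatty acid use, 13 were lower, where 59.5% of all genes tested had a log2 fold change below 0. Of these, 5 had an unadjusted p below 0.05 (7.18% of all genes). The median log2 fold change of the 19 was -0.17, near the -0.13 over all genes tested. Rxrg, which encodes a retinoid X receptor, the partner of PPAR-alpha, was at 5.40, 8.79 and 5.59 CPM against 9.20, 11.2 and 12.5 CPM without overlap (-0.73 ± 0.25, SE). The estrogen-related receptor genes Esrrb (-0.78 ± 0.30) and Esrrg (-0.49 ± 0.20; both SE) overlapped between the groups. In the main edgeR fit 0 of the 19 passed the adjusted threshold. Without the filter on low counts, edgeR called Angptl4, which was higher with LGK-974 (adjusted p = 0.0235), and Klf15, which was lower (0.0283). In that setting 3.52% of all genes were called.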
